A study of Mus musculus with 11 samples.

Results

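Neurons of the thalamic relay for vision, the dorsolateral geniculate nucleus (dLG), were compared with neurons of the relay for hearing, the ventral part of the medial geniculate nucleus (MGv), across all genes. Of the 11 RNA-seq libraries of the series, 7 entered the comparison, 4 of dLG and 3 of MGv. The other 4 came from the relay of facial touch, the ventral posteromedial nucleus (VPM), and were no side of the comparison. They served to estimate the spread between libraries, and also entered the choice of genes tested and the scaling. Both groups were newborn mice (postnatal day 0) of the outbred ICR/CD-1 strain with the genotype Gbx2CreER-IRES-EGFP/+::R26lsl-tdTomato/+, in which tamoxifen activates a Cre recombinase made from the Gbx2 locus, so that young neurons of the thalamus become red with tdTomato. All animals of both groups carried both alleles, and no library came from animals without them. Nuclei were cut out of slices, dissociated and sorted for red cells, and each library was made from 4 pooled brains, so that neither single animals nor single cells can be told apart. Because Gbx2 itself drove the label and 1 Gbx2 allele carried the cassette, the level of Gbx2 is not independent of how the cells were chosen.

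Each nucleus receives input from its own sense organ and sends axons to its own primary area of the cortex. Relay neurons of both nuclei are glutamatergic and arise from the same part of the embryonic thalamus, where transcription factors such as Gbx2, Tcf7l2 and Lef1 are expressed. In newborn mice their axons have reached the cortex, guided by receptors and ligands such as ephrins, Slits and semaphorins, and retinal or midbrain axons are sorting out their targets. Some primary sensory relay neurons also take up serotonin at this age without making it.

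The dLG libraries held 15.9 to 22.7 M counts and the MGv libraries 10.2 to 13.2 M counts, and 3 counts in a library corresponded to 0.129 to 0.292 CPM (counts scaled to a library of fixed size). Below, the values of a gene are given in CPM in the order of the replicate numbers, dLG replicates 1 to 4 and then MGv replicates 1 to 3. A gene passed when edgeR's quasi-likelihood test gave an adjusted p under 0.1 (Benjamini-Hochberg, over 15907 genes). Log2 fold changes are dLG over MGv with their standard errors, so that a negative value is higher in MGv. Nothing in the labels says that the libraries of a nucleus came from separate cultures or litters, and p-values measure the spread between these libraries.

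The neuronal genes were high in all 7 libraries and the markers of GABAergic neurons were low. The gene of the vesicular GABA transporter, Slc32a1, had no count in any of them, the summed level of 16 GABAergic markers was 3.71 to 6.57 CPM in dLG and 6.01 to 12.3 CPM in MGv, and Tubb3, a neuronal tubulin, was at 2315 to 3540 CPM. Of the 12 pan-neuronal markers, 2 passed as higher in dLG (the neurofilament genes Nefl and Nefm) and 1 as higher in MGv, Rbfox3 (log2 fold change -0.65 ± 0.14, adjusted p = 0.00597). That was 25.0%, beside 16.1% of all genes. Globin transcripts of red blood cells stood in dLG replicate 3 and almost nowhere else, with Hbb-bs at 0.183, 0.172, 347 and 0.0954 CPM in dLG and 0 in every MGv library. The heat shock cognate gene Hspa8 was at 433, 3.05, 581 and 319 CPM in dLG and at 5.56, 336 and 284 CPM in MGv, so that dLG replicate 2 and MGv replicate 1 lay far below the others, as did VPM replicate 3. The Y-linked gene Ddx3y had no count in dLG replicates 1 and 3, whereas the remaining libraries held 8.26 to 34.5 CPM. None of 6 sex-linked transcripts passed in the main edgeR fit or by DESeq2, and 0 had an unadjusted p under 0.05 in that edgeR fit. With the replicate number as a block in edgeR, 2 passed as higher in dLG.

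One dLG library lay closer to MGv than the rest. Among the 840 genes that were higher in MGv and had a mean of at least 10 CPM there, dLG replicate 2 had the highest of the 4 dLG values in 485 (57.7%), against 104 to 135 genes for each of the other replicates. Among the 795 genes that were higher in dLG at this level, it had the lowest dLG value in 387 (48.7%). No MGv library stood out in this way, with shares of 24.0% to 40.4% and 27.3% to 38.6%. Values without dLG replicate 2 are given where they differ from the fitted fold by over 1.5 times, and without it 2656 genes passed in all, 1386 higher in dLG and 1270 in MGv, with 89.7% of the calls made with it among them.

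The 6 genes by which the nuclei are labelled here showed where each lay. Hs6st2 encodes an enzyme that adds sulfate at the 6-O position of heparan sulfate, and Gpc4 encodes glypican 4, a cell surface proteoglycan that carries such chains. Hs6st2 was at 614, 473, 647 and 617 CPM in dLG and 26.4, 26.7 and 33.7 CPM in MGv (log2 fold change 4.35 ± 0.18, adjusted p = 6.94e-09, a 20.3-fold difference). The lowest dLG library was far above the highest MGv library. Gpc4 was at 14.7, 6.70, 13.6 and 16.2 CPM in dLG and 0, 0 and 0.0972 CPM in MGv (log2 fold change 8.48 ± 0.69, adjusted p = 5.47e-06). All MGv libraries together held 1 count of Gpc4 against 987 in dLG, a ratio of 437 with a 95% counting interval of 78.3 to 17283, and the fitted log2 fold change was 10.89 without MGv replicate 3, which held that count. Both genes lie on the minus strand of chromosome X, 51387212 to 51681856 and chromosome X, 52053021 to 52165252 (GRCm38), in the same part of the X chromosome. The next glypican gene there, Gpc3, was at 3.77, 1.98, 4.09 and 3.05 CPM in dLG and 0.902, 0.263 and 1.94 CPM in MGv and did not pass (log2 fold change 1.64 ± 0.66, adjusted p = 0.139). Rora encodes a nuclear receptor that is expressed in sensory relay neurons, and it was at 1367, 849, 1334 and 1581 CPM in dLG and 590, 555 and 471 CPM in MGv (log2 fold change 1.25 ± 0.20, adjusted p = 8.77e-04). It was detected at a high level in both nuclei, and the dLG libraries were all above the MGv libraries.

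The promoters of Hs6st2 and Gpc4, chosen as the dLG genes of this group with the largest differences, are shown from 250 bases before to 50 bases after the RefSeq start (GRCm38.p6, gene strand), with the half-site AGGTCA that receptors of the Rora kind can bind, or its reverse complement, in capitals. Hs6st2 has a second start in the same table, whose window holds no match. The half-site was searched on both strands, and 16.3% of all 32851 promoter windows and 12.3% of the 14471 windows of genes tested hold at least 1. Of the windows of genes that were higher in dLG, 14.4% of 1327 hold it, and of those higher in MGv 10.8% of 1184.
Hs6st2, chrX:51681553-51681852: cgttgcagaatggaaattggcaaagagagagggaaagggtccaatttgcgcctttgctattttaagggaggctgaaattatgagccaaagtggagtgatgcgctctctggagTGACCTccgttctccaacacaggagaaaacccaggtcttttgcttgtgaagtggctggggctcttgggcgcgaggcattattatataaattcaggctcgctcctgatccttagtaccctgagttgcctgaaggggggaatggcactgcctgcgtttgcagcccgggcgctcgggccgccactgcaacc
Gpc4, chrX:52164874-52165173: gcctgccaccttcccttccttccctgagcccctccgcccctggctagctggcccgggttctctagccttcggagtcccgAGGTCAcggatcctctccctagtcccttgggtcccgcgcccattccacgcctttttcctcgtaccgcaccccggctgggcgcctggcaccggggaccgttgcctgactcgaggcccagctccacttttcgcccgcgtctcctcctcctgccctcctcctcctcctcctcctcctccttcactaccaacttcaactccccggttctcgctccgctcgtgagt

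The other 3 of the 6 genes were higher in MGv. Gbx2, a homeobox gene of thalamic relay neurons, was at 29.4, 51.6, 14.2 and 22.3 CPM in dLG and 333, 308 and 272 CPM in MGv (log2 fold change -3.37 ± 0.34, adjusted p = 2.34e-05), but 43.5% of its exon length overlaps the transcript D130058E05Rik, whose reads cannot be told apart without strand. Crabp2, a carrier protein for retinoic acid inside cells, was at 4.87, 103, 7.68 and 7.40 CPM in dLG and 585, 715 and 413 CPM in MGv (log2 fold change -4.21 ± 0.88, adjusted p = 0.00583). Here 3 dLG libraries were below 8 CPM while dLG replicate 2 lay between them and MGv. Without it the log2 fold change was -6.42 (adjusted p = 1.98e-06). Tshz1, a zinc finger transcription factor, was at 17.5, 50.3, 20.5 and 24.7 CPM in dLG and 234, 228 and 180 CPM in MGv (log2 fold change -2.92 ± 0.35, adjusted p = 1.12e-04). For Gbx2 and Tshz1 too, dLG replicate 2 had the highest dLG value, yet no dLG library reached the lowest MGv library.

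**Figure D1:**
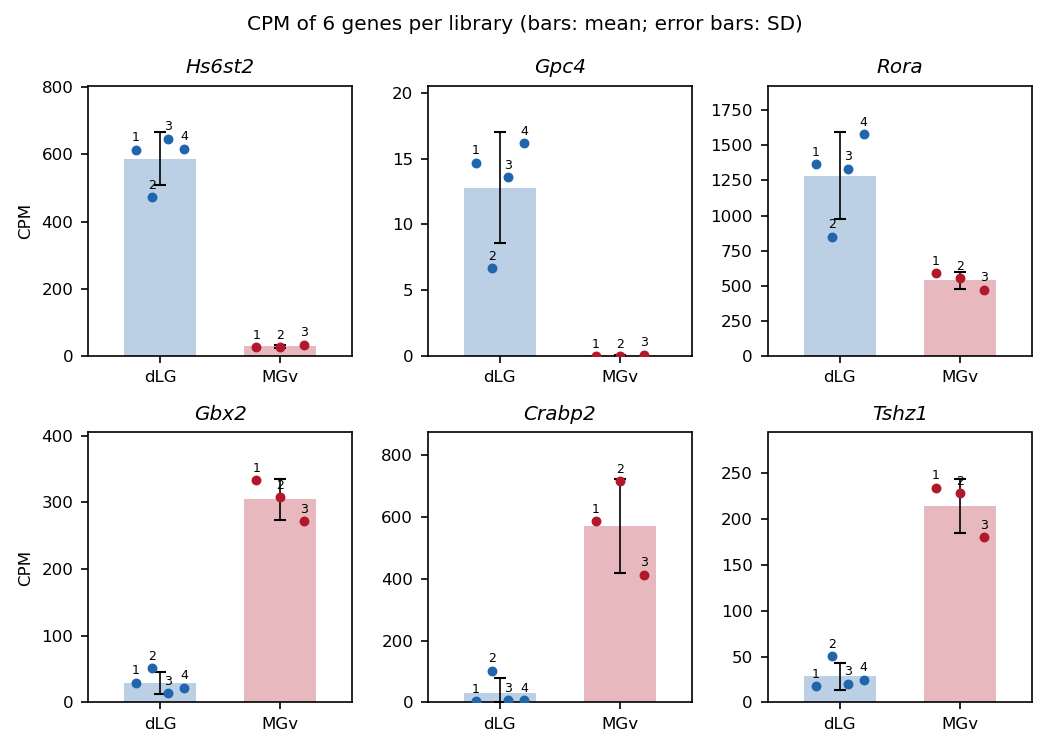
Points are the CPM of each library for 6 genes, numbered by replicate, with dLG in blue and MGv in red; bars are means and error bars SD (4 dLG and 3 MGv libraries; the lower error bar stops at 0). The nuclei do not overlap for any of the 6, and dLG replicate 2 is the dLG library nearest to MGv for each of them.

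Across the genome the nuclei differed in many genes. Of the 15907 genes tested, 2562 passed (16.1%), 1370 of them with the higher level in dLG (8.61%) and 1192 with the higher level in MGv (7.49%). Fold changes were larger on the dLG side, with a median size of 1.43 on the log2 scale against 1.07 on the MGv side. Of the former 475 and of the latter 278 differed by over 2 on this scale. The MGv libraries held fewer counts, and 50 genes higher in dLG had no count in MGv, against 6 in the other direction. With all libraries thinned to the smallest total, 1294 genes were higher in dLG and 1207 in MGv. Without dLG replicate 2, the dLG library nearest to MGv, these counts were 1386 and 1270. The part of depth and of that library in the sizes of the fold changes was not tested. The libraries of the nuclei did not overlap for 1257 of the 1370 and 1075 of the 1192, while among all genes tested 12.4% lay without overlap on the dLG side and 11.3% on the MGv side. The median log2 fold change of all genes was 0.02. Without the 3 libraries with low Hspa8, 3209 genes passed, 1657 higher in dLG and 1552 higher in MGv. With total counts in place of TMM scaling, the share of calls that were higher in dLG was 58.7% rather than 53.5%. Other settings lowered this share, to 51.7% with the thinned libraries, 49.3% with at least 10 counts required in every library, and 49.0% with limma's voom test. The small majority of calls on the dLG side thus depended on the settings.

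**Figure D2:**
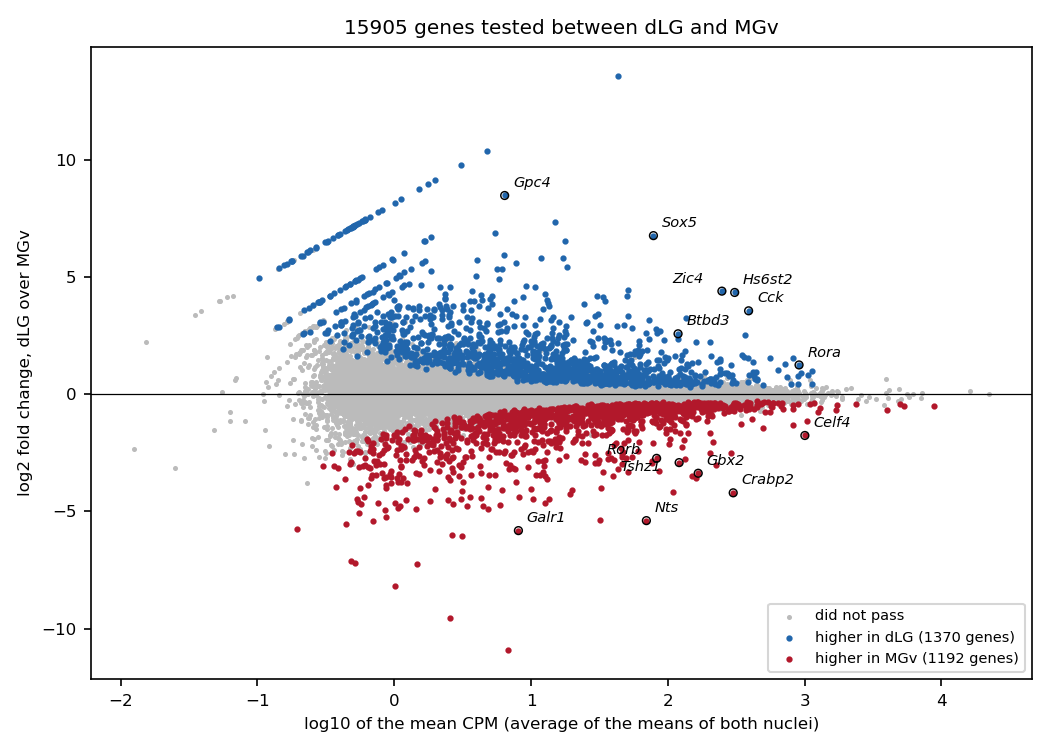
Each point is a gene, with the log10 of its mean CPM on the x axis and the log2 fold change of dLG over MGv on the y axis; 15905 genes are drawn, since 2 had no count in either nucleus. Blue points (1370) and red points (1192) passed, and the genes named in the plot are circled; the straight rows of points at the left are genes with 0 or few counts in one nucleus.

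The genes with the smallest p among abundant genes had differences many times their standard errors. Sox5, a transcription factor with an HMG box, was at 163, 137, 160 and 161 CPM in dLG and 0.902, 1.49 and 1.94 CPM in MGv (log2 fold change 6.77 ± 0.26, adjusted p = 5.26e-09). Btbd3, which is known for orienting the dendrites of cortical neurons towards active axons, was at 199, 197, 206 and 213 CPM in dLG and 30.8, 38.7 and 32.6 CPM in MGv (log2 fold change 2.58 ± 0.14, adjusted p = 2.09e-07). Prkch, a protein kinase C, was at 122 to 157 CPM in dLG and 17.3 to 27.6 CPM in MGv (log2 fold change 2.62 ± 0.18, adjusted p = 1.75e-06). Dmrtb1, of the doublesex-related family of transcription factors, was at 189 to 292 CPM in dLG and 22.5 to 31.7 CPM in MGv (log2 fold change 3.25 ± 0.24, adjusted p = 2.91e-06). In the other direction, the HMG box genes Tox2 and Tox both stood out. Tox2 was at 18.4, 26.4, 13.3 and 17.8 CPM in dLG and 99.0, 95.3 and 115 CPM in MGv (log2 fold change -2.44 ± 0.21, adjusted p = 6.57e-06). Tox was at 47.5 to 67.8 CPM in dLG and 155 to 196 CPM in MGv (log2 fold change -1.58 ± 0.15, adjusted p = 1.77e-05). Celf4, an RNA-binding protein of excitatory neurons, was the most abundant of this group, at 451, 575, 421 and 386 CPM in dLG and 1346, 1575 and 1732 CPM in MGv (log2 fold change -1.76 ± 0.16, adjusted p = 1.11e-05). Brinp2 was at 25.1 to 36.8 CPM in dLG and 112 to 136 CPM in MGv (log2 fold change -2.08 ± 0.19, adjusted p = 1.22e-05).

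Some genes of the largest fold changes were nearly confined to dLG libraries. Fam163a was at 35.3, 27.5, 36.3 and 42.0 CPM in dLG and 0.301, 0.0878 and 0.778 CPM in MGv (log2 fold change 6.53 ± 0.42, adjusted p = 8.52e-07). Cldn3, a claudin of tight junctions, was at 20.7 to 29.5 CPM in dLG and 0.0878 to 0.778 CPM in MGv (log2 fold change 5.83 ± 0.67, adjusted p = 7.61e-05). Smyd1, a methyltransferase known from muscle, was at 25.1 to 46.7 CPM in dLG and 0.225 to 1.32 CPM in MGv (log2 fold change 5.45 ± 0.40, adjusted p = 2.86e-06). The MGv levels of these genes were close to the level of 3 counts, and a single MGv library moved several of the folds: without MGv replicate 3 the log2 fold change of Fam163a was 7.40 and that of Cldn3 6.55. Fam19a4, which encodes a secreted protein, was at 51.9, 9.97, 35.2 and 37.4 CPM in dLG and 0.150, 0 and 1.75 CPM in MGv (log2 fold change 5.82 ± 0.77, adjusted p = 2.05e-04). Its value in dLG replicate 2 was the lowest of the dLG libraries, and the log2 fold change was 8.58 without MGv replicate 3 and 5.23 without MGv replicate 2. Gypc, a membrane skeleton glycoprotein best known from red cells, was at 8.03 to 19.5 CPM in dLG and 0 to 0.676 CPM in MGv, with dLG replicate 1 the highest (log2 fold change 5.61 ± 0.62, adjusted p = 5.10e-05, or 7.27 without MGv replicate 1). Fes, a tyrosine kinase, was at 5.28 to 17.0 CPM in dLG and 0.0878 to 0.680 CPM in MGv (log2 fold change 5.33 ± 0.63, adjusted p = 8.63e-05, or 6.55 without MGv replicate 3). Hbb-bs had the largest fitted fold change of all, but it rested on dLG replicate 3, and without that library its adjusted p was 0.409.

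The corresponding genes of MGv included extracellular and secreted molecules. Tnr, the extracellular matrix protein tenascin R, was at 0.974, 2.96, 2.34 and 1.24 CPM in dLG and 43.5, 23.3 and 42.9 CPM in MGv (log2 fold change -4.26 ± 0.35, adjusted p = 6.13e-06). Rxfp1, the receptor of relaxin, was at 0.791, 3.27, 0.109 and 0.382 CPM in dLG and 24.1, 30.3 and 23.8 CPM in MGv (log2 fold change -4.47 ± 0.64, adjusted p = 4.29e-04, or -5.94 without dLG replicate 2). Otof, which encodes otoferlin, a calcium sensor of vesicle release known from inner hair cells, was at 1.22, 1.55, 0 and 0.764 CPM in dLG and 17.3, 17.5 and 24.3 CPM in MGv (log2 fold change -4.45 ± 0.67, adjusted p = 5.60e-04). In all 3 genes every MGv library was several times above the highest dLG library. Igf1, insulin-like growth factor 1, was at 1.10, 0.559, 1.09 and 0.334 CPM in dLG and 5.03, 3.95 and 38.1 CPM in MGv (log2 fold change -4.36 ± 0.79, adjusted p = 0.00233). Most of that difference lay in MGv replicate 3, and without it the log2 fold change was -2.58 (adjusted p = 0.0156). The predicted RNA gene Gm26870 had no count in dLG and 36.7, 1.32 and 2.72 CPM in MGv, at least 400-fold higher against a floor of 3 counts over the dLG group. It shares 54.6% of its exon length with Gm10715 and is uncertain, and its fitted log2 fold change of -10.93 became -8.20 without MGv replicate 1 and -11.51 without MGv replicate 2.

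Transcription factors of thalamic relay neurons were divided between the nuclei. Of the 20 tested of a list of 22, 8 were higher in dLG and 7 higher in MGv, with a median log2 fold change of 0.08, beside 16.1% of all genes. On the dLG side, the LIM homeobox gene Lhx9 was at 475, 531, 626 and 534 CPM in dLG and 167, 198 and 177 CPM in MGv (log2 fold change 1.58 ± 0.14, adjusted p = 1.03e-05). The nuclear receptor Nr2f1 was at 222, 226, 192 and 226 CPM in dLG and 86.6, 82.9 and 86.5 CPM in MGv (log2 fold change 1.34 ± 0.14, adjusted p = 3.02e-05). Prox1, a homeobox gene, was at 72.5, 95.1, 47.3 and 85.7 CPM in dLG and 13.1, 12.4 and 4.08 CPM in MGv (log2 fold change 2.92 ± 0.35, adjusted p = 9.46e-05). Both nuclei expressed each of them, and the dLG libraries were all above. The Wnt effector Lef1 (0.91 ± 0.16), the forkhead gene Foxp1 (0.89 ± 0.21) and Mef2c (1.23 ± 0.22), a factor of activity-dependent transcription, passed in the same direction with smaller differences.

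On the MGv side, Etv1, an ETS factor, was at 0.426, 0.516, 0.381 and 0.382 CPM in dLG and 6.24, 5.88 and 22.3 CPM in MGv (log2 fold change -4.71 ± 0.51, adjusted p = 4.43e-05, or -3.80 without MGv replicate 3). Nr2f2, the closest relative of Nr2f1, was at 0.426, 1.85, 0.218 and 1.24 CPM in dLG and 21.3, 17.6 and 34.4 CPM in MGv (log2 fold change -4.64 ± 0.48, adjusted p = 3.02e-05). The related receptors Nr2f1 and Nr2f2 were thus higher in opposite nuclei. The same held for the retinoid-related receptors: Rora was higher in dLG, and Rorb was at 20.7, 30.5, 17.7 and 17.6 CPM in dLG and 117, 144 and 172 CPM in MGv (log2 fold change -2.73 ± 0.30, adjusted p = 4.28e-05). Tcf7l2, a Wnt effector and general marker of the thalamus, was at 393, 696, 382 and 406 CPM in dLG and 1147, 1072 and 1286 CPM in MGv (log2 fold change -1.32 ± 0.19, adjusted p = 4.42e-04), while the related Lef1 was higher in dLG. Foxp2 was at 241, 372, 223 and 235 CPM in dLG and 737, 674 and 772 CPM in MGv (log2 fold change -1.44 ± 0.17, adjusted p = 8.80e-05), against the opposite direction of Foxp1. Lhx2 was at 13.5 to 26.9 CPM in dLG and 58.8 to 91.2 CPM in MGv (log2 fold change -2.08 ± 0.31, adjusted p = 6.15e-04), opposite to Lhx9. These opposite pairs were formed from members that passed. Other related factors, such as the Zic genes or Tox and Tox2, passed in the same direction. Pou2f2 (174 to 231 CPM in dLG and 134 to 180 CPM in MGv, adjusted p = 0.472) and Mef2a (114 to 160 CPM in dLG and 143 to 154 CPM in MGv, adjusted p = 0.798) were as abundant as many of these and did not pass.

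The 45 tested of 58 other transcription factors of the diencephalon split into 16 members higher in dLG, 11 higher in MGv and 18 that did not pass. Thus 60.0% passed, beside 16.1% of all genes. Several members of the dLG side were Zic genes, zinc finger factors of the dorsal neural tube. Zic1 was at 308, 369, 305 and 351 CPM in dLG and 82.9, 67.2 and 61.9 CPM in MGv (log2 fold change 2.24 ± 0.16, adjusted p = 1.75e-06). Its divergent neighbour Zic4 was at 440, 462, 461 and 537 CPM in dLG and 28.3, 28.8 and 10.1 CPM in MGv (log2 fold change 4.40 ± 0.39, adjusted p = 8.80e-06). Zic1 thus kept a substantial level in MGv, whereas the MGv level of Zic4 was a small share of its dLG level. Zic2 was at 0.852 to 3.65 CPM in dLG and 0.176 to 0.389 CPM in MGv (log2 fold change 2.86 ± 0.56, adjusted p = 0.00391). Zic5 was at 6.21, 15.4, 14 and 7.49 CPM in dLG and had 3 counts in MGv, a ratio of 129 with a 95% counting interval of 44.0 to 627. Its fitted log2 fold change of 6.87 became 7.68 without MGv replicate 1. Sp9 was at 81.9, 116, 117 and 293 CPM in dLG and 26.8, 13.0 and 30.3 CPM in MGv (log2 fold change 2.7 ± 0.51, adjusted p = 0.00310), with 1 dLG library well above the rest. Sox2 (0.86 ± 0.14) and Nhlh2 (1.05 ± 0.18) were also higher in dLG, and so was the neurogenic factor Neurog2, at 4.20 to 12.6 CPM in dLG and 0.680 to 3.83 CPM in MGv (log2 fold change 2.08 ± 0.57, adjusted p = 0.0281, or 3.19 without MGv replicate 1), which did not pass without MGv replicate 2 (adjusted p = 0.109) or 3 (adjusted p = 0.111).

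Bcl11a, a zinc finger factor also known as CTIP1, had the smallest p of this list on the MGv side, at 39.0, 80.2, 38.3 and 43.8 CPM in dLG and 463, 400 and 345 CPM in MGv (log2 fold change -3.0 ± 0.27, adjusted p = 1.09e-05). Pbx3, a homeobox cofactor, was at 3.54 to 4.86 CPM in dLG and 12.4 to 25.2 CPM in MGv (log2 fold change -1.99 ± 0.44, adjusted p = 0.00863).

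**Figure D3:**
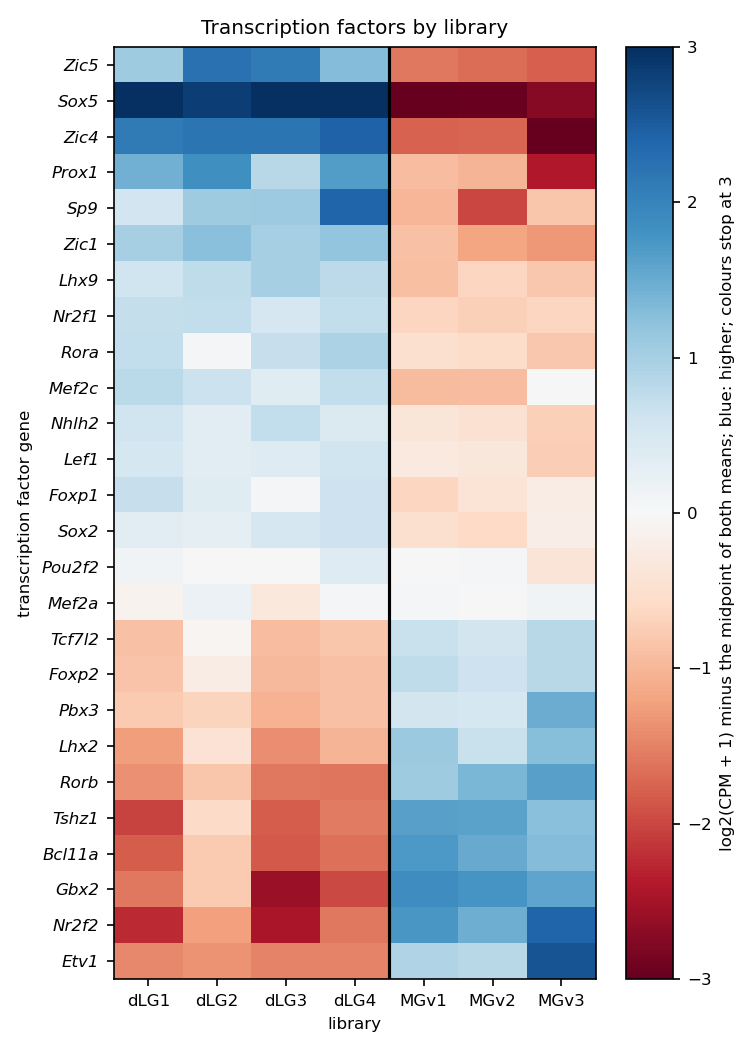
Rows are 26 transcription factor genes and columns the 7 libraries; the colour is log2(CPM + 1) minus the midpoint of the means of both nuclei, blue above it and red below it, with colours that stop at 3. The upper rows are blue in dLG and the lower rows blue in MGv, Pou2f2 and Mef2a are pale throughout, and in the lower rows dLG2 is mostly paler than dLG1, dLG3 and dLG4.

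Genes of retinoic acid signalling passed in 1 direction. Retinoic acid is made from vitamin A, is carried by cellular binding proteins, acts on nuclear receptors that sit on paired half-sites in DNA, and is removed by Cyp26 enzymes. Of 16 members tested, 4 were higher in MGv and 0 higher in dLG by edgeR's quasi-likelihood test (25.0%, beside 16.1% of all genes). DESeq2 gave the same counts, 5 and 1 had an unadjusted p under 0.05, and the median log2 fold change was -0.13. Next to Crabp2, its relative Crabp1 was at 3.23, 4.60, 4.69 and 2.29 CPM in dLG and 9.24, 11.5 and 8.65 CPM in MGv (log2 fold change -1.40 ± 0.36, adjusted p = 0.0208). Cyp26a1, the degrading enzyme, was at 0.365, 0.945, 0.708 and 0.382 CPM in dLG and 4.06, 7.37 and 8.65 CPM in MGv (log2 fold change -3.44 ± 0.47, adjusted p = 2.69e-04). Rarb, a receptor, was at 0.122, 1.42, 0 and 0.382 CPM in dLG and 5.41, 3.86 and 2.62 CPM in MGv (log2 fold change -2.98 ± 0.83, adjusted p = 0.0309). Cyp26a1 and Rarb were low in all libraries, 38.4% of the exon length of Rarb overlaps Top2b, and Rarb did not pass without MGv replicate 1 (adjusted p = 0.106) while its log2 fold change without dLG replicate 2 was -4.46. The other receptors did not pass, among them Rara at 3.84 to 5.39 CPM in dLG and 2.86 to 3.34 CPM in MGv (adjusted p = 0.159) and Rxrb at 9.04 to 13.5 CPM in dLG and 10.2 to 15.2 CPM in MGv (adjusted p = 0.469).

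Cyp26a1 and Rarb are known targets of retinoic acid, and their promoters are shown because both windows hold a direct repeat of receptor half-sites spaced by 5 bases, in capitals. The forms searched, on both strands, were AGGTCA or AGTTCA followed after 5 bases by the same letters, and GGTTCA followed after 5 bases by AGTTCA. The AGTTCA repeat is the form in Cyp26a1 and the GGTTCA form is that in Rarb, so the choice of forms fixed these matches. Other spellings of the repeat were not searched. The forms searched occur in 13 of 32851 promoter windows (0.0396%). Among the genes tested, 4 windows hold one, those of Cyp26a1, Rarb, Blvrb and Tnfsf13b. Cyp26a1 and Rarb were higher in MGv, Blvrb was higher in dLG (log2 fold change 1.14, adjusted p = 0.0619), and Tnfsf13b did not pass (adjusted p = 0.954). In Cyp26a1 the match is on the strand opposite to the gene, 32 bases before the start, and in Rarb it is on the gene strand, 53 bases before the start. The windows are from RefSeq (GRCm38.p6, gene strand).
Cyp26a1, chr19:37697558-37697857: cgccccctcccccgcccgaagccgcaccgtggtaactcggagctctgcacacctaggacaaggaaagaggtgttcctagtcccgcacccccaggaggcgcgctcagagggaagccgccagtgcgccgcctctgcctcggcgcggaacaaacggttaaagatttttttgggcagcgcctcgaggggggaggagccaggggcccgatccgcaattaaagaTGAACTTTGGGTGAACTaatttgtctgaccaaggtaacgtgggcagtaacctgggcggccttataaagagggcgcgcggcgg
Rarb, chr14:16575427-16575726: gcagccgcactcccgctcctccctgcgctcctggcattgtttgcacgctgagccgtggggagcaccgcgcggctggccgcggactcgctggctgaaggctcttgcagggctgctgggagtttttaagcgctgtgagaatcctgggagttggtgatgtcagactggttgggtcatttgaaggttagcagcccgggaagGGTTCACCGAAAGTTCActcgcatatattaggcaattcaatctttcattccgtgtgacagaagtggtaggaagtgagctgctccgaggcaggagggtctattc

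Enzymes and core proteins of heparan sulfate, sugar chains that bind growth factors and guidance molecules, differed in both directions. Of 29 tested, 6 were higher in dLG and 8 in MGv (48.3%, beside 16.1% of all genes, median log2 fold change 0.01). The list holds Hs6st2 and Gpc4, by which the nuclei are labelled here. Sulfotransferases were found on both sides. Ndst3, an N-sulfotransferase, was at 19.7, 18.3, 21.5 and 21.4 CPM in dLG and 4.28, 4.30 and 4.57 CPM in MGv (log2 fold change 2.20 ± 0.30, adjusted p = 2.55e-04). Its relative Ndst4 was at 4.63, 5.54, 2.40 and 4.63 CPM in dLG and 9.24, 13.5 and 14.8 CPM in MGv (log2 fold change -1.54 ± 0.33, adjusted p = 0.00687). Of the 3-O-sulfotransferases, Hs3st1 was higher in dLG (312 to 389 CPM in dLG and 129 to 237 CPM in MGv, log2 fold change 0.88 ± 0.18, adjusted p = 0.00537). Hs3st5 was higher in MGv (36.6 to 43.8 CPM in dLG and 66.2 to 101 CPM in MGv, log2 fold change -1.15 ± 0.19, adjusted p = 0.00113). Within these 2 pairs, formed from members that passed, 1 enzyme was higher in each nucleus, and both nuclei expressed all 4. Other relatives of the list passed in the same direction, Gpc4 and Gpc6 in dLG and Sulf1 and Sulf2 in MGv. Hs6st1, which adds the same sulfate as Hs6st2, was at 38.7 to 51.4 CPM in dLG and 29.5 to 41.9 CPM in MGv and did not pass (log2 fold change 0.41 ± 0.17, adjusted p = 0.144).

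The enzymes that remove 6-O-sulfate outside the cell were both higher in MGv. Sulf2 was at 6.33, 9.67, 10.4 and 13.9 CPM in dLG and 73.1, 51.1 and 90.2 CPM in MGv (log2 fold change -2.82 ± 0.31, adjusted p = 4.61e-05). Sulf1 was at 2.25, 4.68, 0.926 and 1.24 CPM in dLG and 9.02, 7.55 and 9.62 CPM in MGv (log2 fold change -1.92 ± 0.51, adjusted p = 0.0247, or -2.57 without dLG replicate 2). The epimerase Glce was at 16.7 to 25.4 CPM in dLG and 43.4 to 52.3 CPM in MGv (log2 fold change -1.21 ± 0.16, adjusted p = 1.92e-04). Among core proteins, glypican 6, from Gpc6, was higher in dLG at 4.55 to 6.88 CPM in dLG and 1.17 to 2.63 CPM in MGv (log2 fold change 1.82 ± 0.35, adjusted p = 0.00342). Syndecan 1, from Sdc1, was higher in MGv at 4.25 to 7.52 CPM in dLG and 7.96 to 16.6 CPM in MGv (log2 fold change -1.24 ± 0.29, adjusted p = 0.0131). The 6-O-sulfotransferase Hs6st2 and the 6-O-sulfatases Sulf1 and Sulf2, with opposite actions on the chain, passed in opposite directions.

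**Figure D4:**
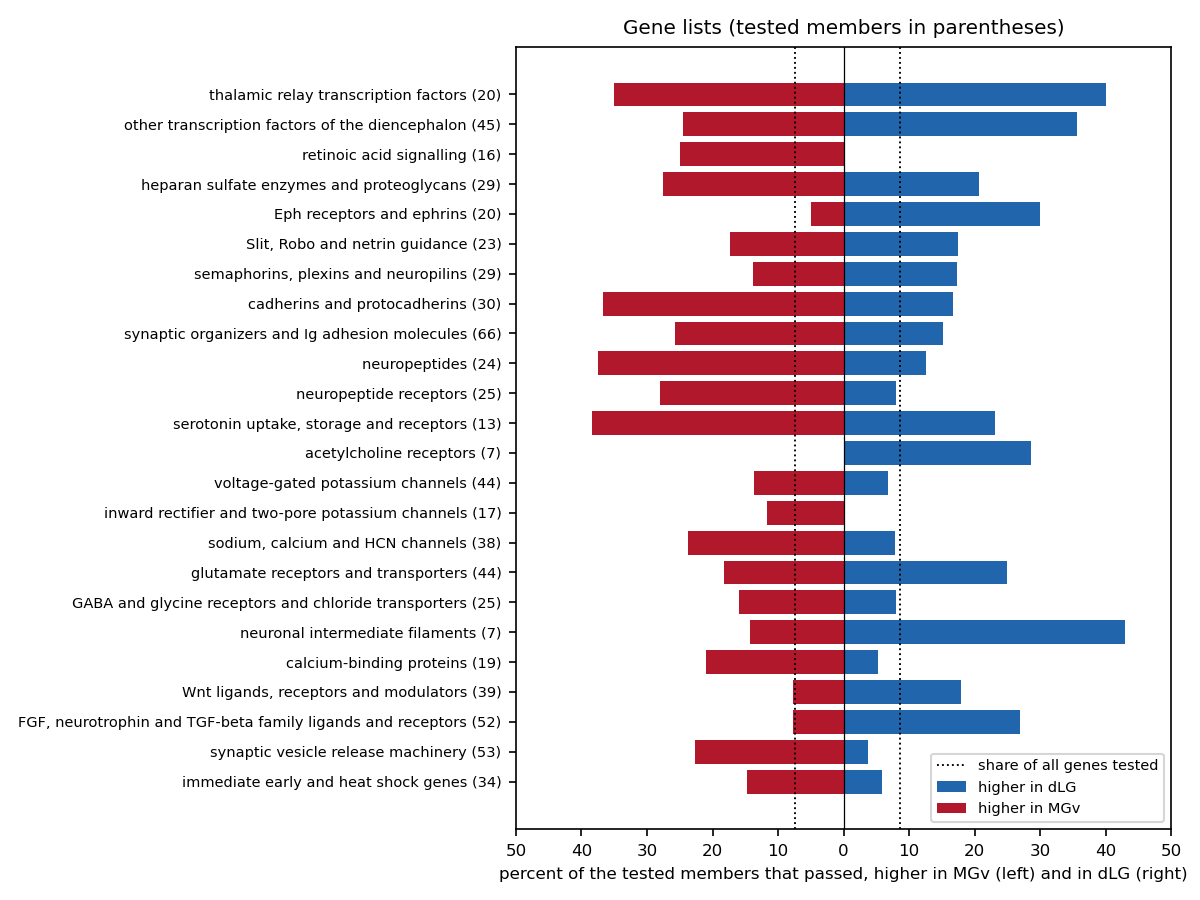
Bars give the percentage of the tested members of each gene list (number in parentheses) that were higher in dLG (blue, right) or in MGv (red, left); dotted lines mark the shares among all genes tested, 8.61% and 7.49%. Transcription factors and filaments extend furthest on the dLG side, and serotonin genes, neuropeptides and cadherins on the MGv side. The lists were chosen with earlier results of these data known.

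Eph receptors and ephrins, which set up topographic maps of axons, passed mostly in the dLG direction. Of 20 tested, 6 were higher in dLG and 1 in MGv (35.0%, beside 16.1% of all genes, median log2 fold change -0.11). Epha7 was at 193, 135, 128 and 168 CPM in dLG and 30.0, 30.7 and 33.5 CPM in MGv (log2 fold change 2.31 ± 0.18, adjusted p = 3.28e-06). Epha3 was at 75.8, 86.9, 98.6 and 88.6 CPM in dLG and 27.9, 25.6 and 25.8 CPM in MGv (log2 fold change 1.73 ± 0.15, adjusted p = 8.59e-06). Both were several times above MGv in every dLG library. The receptors Epha4 (0.95 ± 0.19) and Epha5 (0.86 ± 0.21) and the ligand Efna2 (0.90 ± 0.18) passed with smaller differences. Efna5, a ligand of these receptors, was at 40.1 to 45.2 CPM in dLG and 33.4 to 40.8 CPM in MGv and did not pass (adjusted p = 0.673). The member higher in MGv was Efnb3, at 175 to 212 CPM in dLG and 242 to 255 CPM in MGv (log2 fold change -0.39 ± 0.14, adjusted p = 0.0886). This call was lost in 13 of 24 alternatives, and 3 members were higher in MGv without the 3 libraries with low Hspa8.

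Of 23 genes of Slit, Robo and netrin guidance, 4 were higher in dLG and 4 in MGv (34.8%, beside 16.1% of all genes). Rgma, the repulsive guidance molecule A, was at 40.9, 43.0, 37.3 and 61.7 CPM in dLG and 4.81, 4.48 and 6.80 CPM in MGv (log2 fold change 3.09 ± 0.28, adjusted p = 9.34e-06). The netrin-G ligand Lrrc4c was at 55.1 to 76.9 CPM in dLG and 12.3 to 17.6 CPM in MGv (log2 fold change 2.13 ± 0.20, adjusted p = 1.22e-05). Its relative Lrrc4 was at 6.45 to 14.8 CPM in dLG and 2.98 to 5.56 CPM in MGv (log2 fold change 1.34 ± 0.30, adjusted p = 0.00889). The 3 FLRT genes, which modulate Robo and Unc5 receptors, did not share a direction. Flrt2 was higher in dLG, at 28.1, 17.1, 24.3 and 19.3 CPM in dLG and 2.25, 3.95 and 10.3 CPM in MGv (log2 fold change 2.03 ± 0.40, adjusted p = 0.00430, or 2.84 without MGv replicate 3). Flrt1 was higher in MGv, at 2.45 to 6.87 CPM in dLG and 12.7 to 26.1 CPM in MGv (log2 fold change -2.03 ± 0.40, adjusted p = 0.00373). Flrt3 was at 11.2, 14.5, 14.6 and 21.2 CPM in dLG and 47.3, 52.2 and 53.9 CPM in MGv (log2 fold change -1.73 ± 0.20, adjusted p = 6.33e-05). Draxin, a secreted repellent, was higher in MGv (7.08 to 14.7 CPM in dLG and 23.1 to 26.0 CPM in MGv, log2 fold change -1.09 ± 0.25, adjusted p = 0.0106). The Slit receptor Robo2 was at 88.0 to 131 CPM in dLG and 137 to 191 CPM in MGv (log2 fold change -0.64 ± 0.17, adjusted p = 0.0243) but did not pass without MGv replicate 1 (adjusted p = 0.115). Robo1 was at 11.9 to 18.4 CPM in dLG and 17.5 to 23.2 CPM in MGv and did not pass (adjusted p = 0.190).

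Among 29 semaphorins, plexins and neuropilins, 5 were higher in dLG and 4 in MGv (31.0%, beside 16.1% of all genes). Nrp1, a receptor for class 3 semaphorins, was at 17.6, 28.8, 12 and 14.2 CPM in dLG and 2.63, 2.19 and 4.47 CPM in MGv (log2 fold change 2.56 ± 0.60, adjusted p = 0.0121). Its signalling partner Plxna4 was at 19.9, 17.6, 12.4 and 20.0 CPM in dLG and 1.65, 3.95 and 5.35 CPM in MGv (log2 fold change 2.28 ± 0.34, adjusted p = 5.07e-04). Every dLG library was above every MGv library for both. The ligands Sema5a (20.2 to 28.1 CPM in dLG and 6.54 to 11.5 CPM in MGv, log2 fold change 1.46 ± 0.27, adjusted p = 0.00238) and Sema7a (8.77 to 14.1 CPM in dLG and 2.72 to 7.36 CPM in MGv, log2 fold change 1.20 ± 0.31, adjusted p = 0.0190) were higher in dLG. Sema3f, a secreted ligand, was higher in MGv, at 2.31, 5.11, 1.20 and 1.57 CPM in dLG and 16.3, 14 and 14.8 CPM in MGv (log2 fold change -2.55 ± 0.45, adjusted p = 0.00195, or -3.15 without dLG replicate 2).

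Of the 30 cadherins and protocadherins tested, calcium-dependent adhesion molecules, 5 were higher in dLG and 11 in MGv (median log2 fold change -0.32). This was 53.3%, beside 16.1% of all genes. Cdh11 was at 102, 72.5, 93.6 and 125 CPM in dLG and 5.26, 5.88 and 2.24 CPM in MGv (log2 fold change 4.45 ± 0.33, adjusted p = 2.91e-06). Cdh8 was at 210, 258, 155 and 179 CPM in dLG and 36.2, 37.0 and 43.3 CPM in MGv (log2 fold change 2.37 ± 0.18, adjusted p = 2.99e-06). Cdh10 (56.4 to 64.9 CPM in dLG and 8.79 to 14.9 CPM in MGv, 2.31 ± 0.19) and Cdh7 (18.0 to 31.4 CPM in dLG and 5.64 to 12.1 CPM in MGv, 1.56 ± 0.30) completed the largest differences on the dLG side. On the MGv side, Pcdh17 was at 2.37, 35.9, 4.03 and 2.43 CPM in dLG and 174, 206 and 237 CPM in MGv (log2 fold change -4.18 ± 0.74, adjusted p = 0.00199), again with dLG replicate 2 above the others, and without it the log2 fold change was -6.12. Cdh12 was at 21.1, 26.8, 8.34 and 15.0 CPM in dLG and 132, 139 and 137 CPM in MGv (log2 fold change -2.93 ± 0.31, adjusted p = 3.39e-05). Pcdh8, whose protein is regulated by activity, was at 4.63 to 11.6 CPM in dLG and 62.8 to 89.1 CPM in MGv (-3.19 ± 0.41). Cdh22 was at 0 to 1.85 CPM in dLG and 8.25 to 13.8 CPM in MGv (-4.07 ± 0.70, or -5.40 without dLG replicate 2).

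Synaptic organizers and adhesion molecules of the immunoglobulin type had 10 of 66 members higher in dLG and 17 higher in MGv. Together these were 40.9%, beside 16.1% of all genes. Ntm, neurotrimin, was among the most abundant genes of the comparison, at 1199, 1268, 1131 and 1308 CPM in dLG and 439, 396 and 431 CPM in MGv (log2 fold change 1.54 ± 0.12, adjusted p = 3.24e-06). Its relative Opcml was at 87.6 to 120 CPM in dLG and 17.4 to 24.2 CPM in MGv (log2 fold change 2.27 ± 0.17, adjusted p = 3.24e-06). Lrrtm1, a postsynaptic organizer known in the retinogeniculate pathway, was at 244, 184, 177 and 225 CPM in dLG and 57.1, 41.7 and 73.7 CPM in MGv (log2 fold change 1.85 ± 0.19, adjusted p = 3.02e-05). The latrophilin gene Adgrl2 was at 60.5 to 122 CPM in dLG and 11.6 to 15.7 CPM in MGv (log2 fold change 2.81 ± 0.28, adjusted p = 2.16e-05). On the other side, teneurin 1, from Tenm1, was at 86.6, 127, 62 and 67.1 CPM in dLG and 418, 511 and 554 CPM in MGv (log2 fold change -2.53 ± 0.27, adjusted p = 3.39e-05). Il1rapl2 was at 2.62 to 6.45 CPM in dLG and 12 to 16.9 CPM in MGv (log2 fold change -1.77 ± 0.34, adjusted p = 0.00315). Both Kirrel and Kirrel3, adhesion molecules that pair axons with like axons, were higher in MGv. Kirrel3 was at 31.8, 87.9, 13.9 and 18.3 CPM in dLG and 146, 165 and 186 CPM in MGv (log2 fold change -2.12 ± 0.47, adjusted p = 0.00824, or -2.96 without dLG replicate 2). Kirrel was at 0.0545 to 0.387 CPM in dLG and 3.77 to 6.41 CPM in MGv (-4.69 ± 0.58, or -5.32 without dLG replicate 2).

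Of the neuropeptides, 3 of 24 were higher in dLG and 9 in MGv (50.0%, beside 16.1% of all genes, median log2 fold change -0.64). In dLG, cholecystokinin, from Cck, was at 1333, 290, 620 and 631 CPM against 58.5, 73.9 and 50.1 CPM in MGv (log2 fold change 3.56 ± 0.41, adjusted p = 7.02e-05). Galanin, from Gal, was at 153, 55.7, 101 and 65.7 CPM in dLG and 5.79, 9.22 and 12.9 CPM in MGv (log2 fold change 3.34 ± 0.36, adjusted p = 3.90e-05). Both varied severalfold among the dLG libraries, with replicate 1 highest and replicate 2 lowest, and still did not overlap with MGv. Prepronociceptin, from Pnoc, was at 31.0 to 50.7 CPM in dLG and 18.9 to 22.0 CPM in MGv (0.85 ± 0.22). In MGv, neurotensin, from Nts, was at 86.6, 156 and 166 CPM against 2.92, 8.03, 0.218 and 1.53 CPM in dLG (log2 fold change -5.39 ± 0.63, adjusted p = 8.63e-05, or -6.47 without dLG replicate 2). Nppa, which encodes atrial natriuretic peptide, was at 0.487, 3.14, 1.69 and 0.525 CPM in dLG and 67.1, 67.4 and 53.1 CPM in MGv (log2 fold change -5.38 ± 0.62, adjusted p = 7.48e-05, or -6.11 without dLG replicate 2), and 61.5% of its exon length overlaps Gm13054.

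Further peptide genes that were higher in MGv had moderate levels. Nxph1, neurexophilin 1, a ligand of neurexins, was at 7.18, 8.76, 4.52 and 4.25 CPM in dLG and 45.0, 51.3 and 87.5 CPM in MGv (log2 fold change -3.30 ± 0.28, adjusted p = 6.77e-06). Calca, which encodes calcitonin and calcitonin gene-related peptide, was at 7.67, 11.2, 5.28 and 9.16 CPM in dLG and 46.5, 38.5 and 64.8 CPM in MGv (log2 fold change -2.58 ± 0.38, adjusted p = 5.10e-04). Adcyap1, the gene of the peptide PACAP, was at 5.25 to 8.94 CPM in dLG and 15.5 to 19.0 CPM in MGv (log2 fold change -1.27 ± 0.25, adjusted p = 0.00353). Its receptor Adcyap1r1 was at 2.24 to 13.4 CPM in dLG and 14.9 to 27.3 CPM in MGv (log2 fold change -2.09 ± 0.50, adjusted p = 0.0137, or -3.14 without dLG replicate 2). Ligand and receptor of this pair were thus higher in the same nucleus. Scg2, secretogranin 2, was far more abundant, at 1040, 1162, 691 and 828 CPM in dLG and 1683, 1661 and 1370 CPM in MGv (log2 fold change -0.76 ± 0.19, adjusted p = 0.0157). Grp was at 0.0954 to 1.03 CPM in dLG and 2.25 to 12.4 CPM in MGv (-3.73 ± 1.05, or -4.69 without dLG replicate 2) and did not pass without MGv replicate 3 (-2.57, adjusted p = 0.213).

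The promoter of Nts is shown because the gene had the largest fold change of the abundant peptide genes. It is a known target of AP-1, the dimer of Fos and Jun. The capitals mark TGAGTCA, which together with its reverse complement TGACTCA is found in 5.2% of all 32851 windows, in 3.49% of the 14471 windows of genes tested, in 4.45% of those of genes higher in dLG and in 4.05% of those higher in MGv. The match lies on the gene strand, 207 bases before the start (RefSeq, GRCm38.p6, gene strand).
Nts, chr10:102490369-102490668: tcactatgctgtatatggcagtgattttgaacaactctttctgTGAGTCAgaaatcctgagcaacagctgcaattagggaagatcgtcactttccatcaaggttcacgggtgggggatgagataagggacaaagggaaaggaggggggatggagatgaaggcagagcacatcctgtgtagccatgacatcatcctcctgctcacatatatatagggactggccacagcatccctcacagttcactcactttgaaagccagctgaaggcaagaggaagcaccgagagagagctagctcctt

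Receptors for peptides had 2 of 25 members higher in dLG and 7 in MGv (median log2 fold change -0.69). Together these were 36.0%, beside 16.1% of all genes. The receptors of galanin were higher in opposite nuclei. Galr1 was at 0.0609, 0.859, 0 and 0.0954 CPM in dLG and 15.0, 15.5 and 17.3 CPM in MGv (log2 fold change -5.82 ± 0.72, adjusted p = 1.22e-04, or -8.03 without dLG replicate 2). Galr2 was at 14.9, 10.6, 16.1 and 12.1 CPM in dLG and 4.43, 1.67 and 4.28 CPM in MGv (log2 fold change 1.95 ± 0.34, adjusted p = 0.00158). Galanin itself was higher in dLG, the side of Galr2. Tacr3, the receptor of neurokinin B, was at 0.0609, 1.12, 0 and 0.0954 CPM in dLG and 4.96, 7.90 and 5.05 CPM in MGv (log2 fold change -4.11 ± 0.81, adjusted p = 0.00409, or -6.62 without dLG replicate 2). Cckbr, a receptor of cholecystokinin, was higher in MGv (1.38 to 3.65 CPM in dLG and 5.70 to 12.5 CPM in MGv, log2 fold change -1.95 ± 0.37, adjusted p = 0.00325), opposite to its ligand. The neurotensin receptor Ntsr1 was at 1.16 to 2.15 CPM in dLG and 3.89 to 4.58 CPM in MGv and did not pass (adjusted p = 0.114), although it did in 8 of the 23 alternatives in which it was tested. With dLG and MGv libraries alone, 1 receptor was higher in dLG and 9 in MGv.

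Serotonin genes passed in both directions. Of 13 tested, 3 were higher in dLG and 5 in MGv (61.5%, beside 16.1% of all genes). Slc18a2, the transporter that loads monoamines into vesicles, was at 760, 286, 729 and 719 CPM in dLG and 99.8, 140 and 82.7 CPM in MGv (log2 fold change 2.54 ± 0.34, adjusted p = 2.10e-04). Maoa, the enzyme that degrades serotonin, was at 6.58, 11.3, 4.69 and 6.44 CPM in dLG and 37.0, 43.8 and 47.3 CPM in MGv (log2 fold change -2.55 ± 0.26, adjusted p = 2.24e-05). The transporter that takes serotonin up from outside, Slc6a4, was at 86.3, 41.1, 40.4 and 53.2 CPM in dLG and 55.6, 78.9 and 114 CPM in MGv and did not pass (log2 fold change -0.59 ± 0.34, adjusted p = 0.329). The receptors Htr1b and Htr7 were higher in dLG. Htr1b, a receptor on relay axons, was at 57.0, 39.6, 67.9 and 62.8 CPM in dLG and 5.03, 8.34 and 19.6 CPM in MGv (log2 fold change 2.38 ± 0.42, adjusted p = 0.00191, or 3.09 without MGv replicate 3). Of its exon length 18.0% overlaps D430036J16Rik. Htr7 was at 17.6, 16.2, 13.1 and 19.2 CPM in dLG and 4.88, 4.04 and 5.25 CPM in MGv (log2 fold change 1.81 ± 0.24, adjusted p = 1.85e-04).

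**Figure D5:**
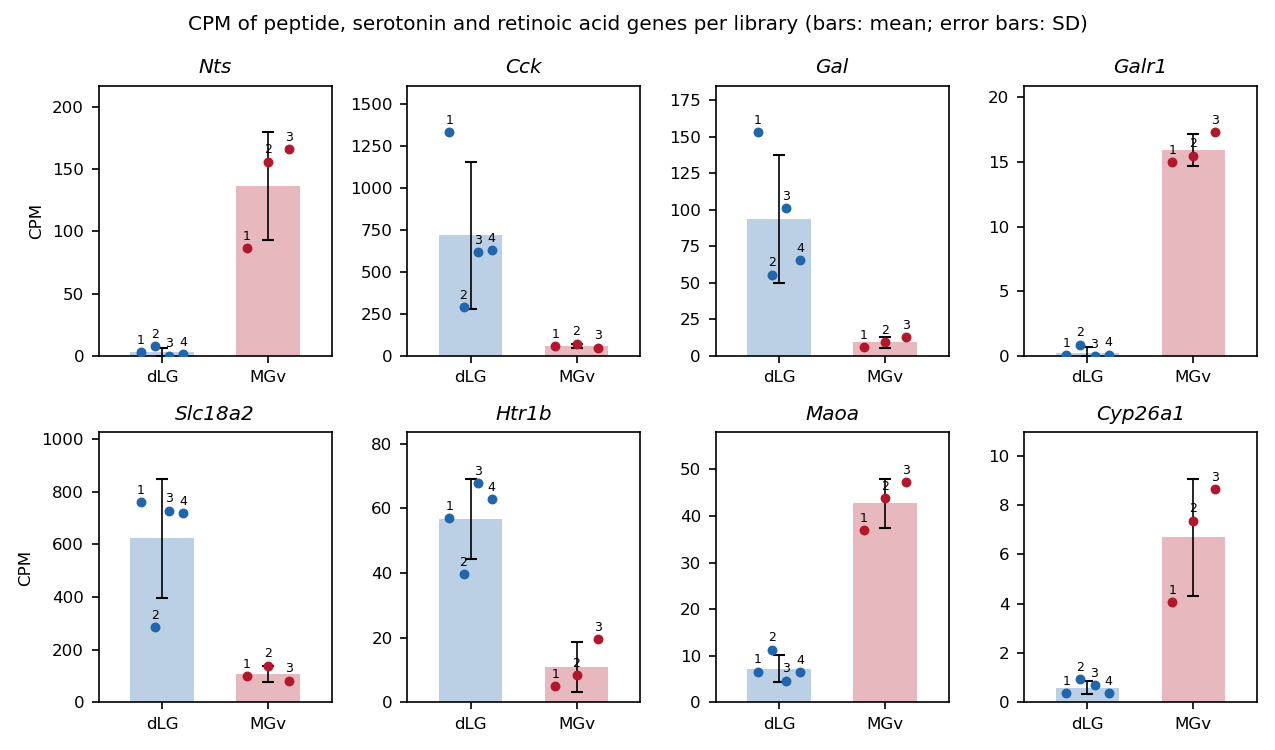
Points are the CPM of each library for 8 genes of peptides, galanin reception, serotonin handling and retinoic acid breakdown, numbered by replicate, with dLG in blue and MGv in red; bars are means and error bars SD (4 dLG and 3 MGv libraries; the lower error bar stops at 0). Cck, Gal, Slc18a2 and Htr1b are higher in dLG and the other 4 genes in MGv, with no overlap in any panel.

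Of the 7 acetylcholine receptor genes tested, 2 were higher in dLG by edgeR's quasi-likelihood test and by DESeq2 (28.6%, beside 16.1% of all genes by edgeR). In MGv 0 were higher by either test, and 1 had an unadjusted p under 0.05 there by edgeR. The muscarinic receptor Chrm3 was at 15.1, 8.12, 17.5 and 25.1 CPM in dLG and 1.20, 0.527 and 3.30 CPM in MGv (log2 fold change 3.31 ± 0.55, adjusted p = 0.00115, or 4.21 without MGv replicate 3). The nicotinic subunit Chrna3 was at 34.0, 14.9, 40.4 and 30.8 CPM in dLG and 6.91, 17.2 and 13.1 CPM in MGv (log2 fold change 1.28 ± 0.37, adjusted p = 0.0403). Its groups overlapped, and it did not pass without dLG replicate 3 (adjusted p = 0.107), MGv replicate 1 (0.148) or MGv replicate 3 (0.109).

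Of 44 voltage-gated potassium channel genes, 3 were higher in dLG and 6 in MGv, 20.5% against 16.1% of all genes. Of 17 inward rectifier and background channel genes 0 were higher in dLG and 2 in MGv (11.8%), and of 38 sodium, calcium and HCN channel genes 3 and 9 (31.6%). DESeq2 also found 0 of the 17 higher in dLG, and 1 had an unadjusted p under 0.05 there by edgeR. Without the 3 libraries with low Hspa8 the potassium channel counts were 5 and 8, and 0 and 4. The calcium-activated channel Kcnn1 was at 82.1, 45.3, 85.4 and 71.9 CPM in dLG and 14.5, 17.5 and 14.2 CPM in MGv (log2 fold change 2.21 ± 0.26, adjusted p = 8.83e-05). Kcna1, a channel of axons, was at 11.5 to 27.5 CPM in dLG and 5.09 to 5.93 CPM in MGv (log2 fold change 2.05 ± 0.36, adjusted p = 0.00178). Kcnip1, a subunit of A-type channels, was at 64.2 to 117 CPM in dLG and 17.7 to 49.0 CPM in MGv (log2 fold change 1.71 ± 0.41, adjusted p = 0.0128). Kcnd2, the pore of such A-type channels, was higher in MGv instead, at 22.0, 45.5, 20.5 and 22.5 CPM in dLG and 91.8, 79.9 and 89.6 CPM in MGv (log2 fold change -1.65 ± 0.26, adjusted p = 8.77e-04). Kcnab1 (-1.98 ± 0.25), Kcnh7 (-1.28 ± 0.25), Kcnh8 (-0.80 ± 0.20) and the background channel Kcnk3 (-1.03 ± 0.25) were also higher in MGv.

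Calcium channel subunits passed on both sides. Cacng3, an auxiliary protein of AMPA receptors that is grouped with calcium channel subunits, was at 5.18, 26.5, 10.1 and 8.49 CPM in dLG and 84.5, 75.6 and 81.2 CPM in MGv (log2 fold change -2.67 ± 0.44, adjusted p = 0.00115, or -3.34 without dLG replicate 2). Cacnb3 was at 49.6, 72.1, 62 and 53.4 CPM in dLG and 153, 197 and 213 CPM in MGv (log2 fold change -1.66 ± 0.19, adjusted p = 7.69e-05). Cacnb2 was at 10.3 to 14.4 CPM in dLG and 19.4 to 33.7 CPM in MGv (-0.98 ± 0.23). Cacna1i, a T-type channel, was higher in MGv (3.77 to 4.92 CPM in dLG and 7.72 to 12.1 CPM in MGv, log2 fold change -1.27 ± 0.25, adjusted p = 0.00405). Cacna1g, the main T-type channel of relay neurons, was at 29.7 to 39.1 CPM in dLG and 29.8 to 42.7 CPM in MGv and did not pass (adjusted p = 0.855). The pacemaker channels Hcn3 (24.8 to 33.6 CPM in dLG and 29.7 to 45.9 CPM in MGv, adjusted p = 0.593) and Hcn4 (14.1 to 27.5 CPM in dLG and 18.3 to 28.9 CPM in MGv, adjusted p = 0.611) did not pass either. Higher in dLG were Cacna2d4 (3.01 to 6.64 CPM in dLG and 0.680 to 1.05 CPM in MGv, 2.58 ± 0.57) and the L-type channel Cacna1d (13.3 to 22.0 CPM in dLG and 9.43 to 11.9 CPM in MGv, 0.80 ± 0.22), the latter not without MGv replicate 3 (adjusted p = 0.109).

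Of 44 genes of glutamate receptors and transporters, 11 were higher in dLG and 8 in MGv (43.2%, beside 16.1% of all genes). AMPA receptor subunits led on the dLG side. Gria1 was at 103, 68.7, 107 and 101 CPM in dLG and 2.7, 4.30 and 8.94 CPM in MGv (log2 fold change 4.18 ± 0.34, adjusted p = 5.25e-06, or 4.76 without MGv replicate 3). Gria3 was at 4.30 to 9.98 CPM in dLG and 0.351 to 3.40 CPM in MGv (log2 fold change 2.28 ± 0.55, adjusted p = 0.0139, or 3.59 without MGv replicate 3). Gria2, the most abundant subunit, was at 946, 496, 841 and 1168 CPM in dLG and 377, 545 and 346 CPM in MGv (log2 fold change 1.03 ± 0.33, adjusted p = 0.0592). Its call was lost without dLG replicate 1 (adjusted p = 0.126), dLG replicate 3 (0.101), dLG replicate 4 (0.151), MGv replicate 1 (0.169) or MGv replicate 3 (0.214). The NMDA receptor subunit of immature synapses, Grin3a, was higher in MGv, at 39.4, 87.3, 21.7 and 27.5 CPM in dLG and 198, 195 and 234 CPM in MGv (log2 fold change -2.25 ± 0.39, adjusted p = 0.00174). Homer2 (1.29 ± 0.19) and the metabotropic receptor Grm8 (1.25 ± 0.18) were higher in dLG, and the scaffold Dlg1 (-1.18 ± 0.25) in MGv. Slc17a6, the vesicular glutamate transporter that marks relay neurons, was at 582, 486, 548 and 534 CPM in dLG and 278, 293 and 441 CPM in MGv (log2 fold change 0.67 ± 0.18, adjusted p = 0.0281). It did not pass without MGv replicate 1 (adjusted p = 0.128) or 2 (adjusted p = 0.120).

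GABA and glycine receptors had 2 of 25 members higher in dLG and 4 in MGv (24.0%, beside 16.1% of all genes). Without the 3 libraries with low Hspa8 these counts were 1 and 7. Glra2, the glycine receptor subunit of immature neurons, was at 324, 321, 320 and 304 CPM in dLG and 186, 197 and 122 CPM in MGv (log2 fold change 0.91 ± 0.15, adjusted p = 0.00121). Gabra4 was at 20.8 to 38.8 CPM in dLG and 9.24 to 18.8 CPM in MGv (0.94 ± 0.25) and was not called without MGv replicate 1 (adjusted p = 0.106) or without the 3 libraries. Gabra5, another alpha subunit, was higher in MGv (65.6 to 72.9 CPM in dLG and 118 to 157 CPM in MGv, -0.98 ± 0.15). Gabrg1 was at 16.6, 43.2, 14.7 and 9.54 CPM in dLG and 93.3, 79.7 and 70.5 CPM in MGv (log2 fold change -1.94 ± 0.37, adjusted p = 0.00317, or -2.58 without dLG replicate 2).

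Of 7 intermediate filament genes, 3 were higher in dLG and 1 in MGv (57.1%, beside 16.1% of all genes). Nefm was at 1105, 491, 940 and 812 CPM in dLG and 276, 254 and 327 CPM in MGv (log2 fold change 1.55 ± 0.26, adjusted p = 0.00130). Nefl was at 1769, 1380, 1644 and 1222 CPM in dLG and 793, 793 and 699 CPM in MGv (log2 fold change 0.98 ± 0.16, adjusted p = 9.54e-04). The exons of these neighbours overlap each other, by 19.2% of the length of Nefm and 32.8% of that of Nefl, so that reads in the overlap cannot be assigned to one of them. Nestin, from Nes, was the member higher in MGv, at 2.67 to 4.38 CPM in dLG and 8.51 to 10.1 CPM in MGv (log2 fold change -1.46 ± 0.28, adjusted p = 0.00335).

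Calcium-binding proteins had 1 of 19 members higher in dLG and 4 in MGv (26.3%, beside 16.1% of all genes). Without the 3 libraries with low Hspa8 these counts were 3 and 5. Calbindin, from Calb1, was at 13.3, 35.4, 7.14 and 8.92 CPM in dLG and 133, 182 and 158 CPM in MGv (log2 fold change -3.27 ± 0.42, adjusted p = 1.50e-04, or -4.01 without dLG replicate 2). Calretinin, from Calb2, was at 208, 257, 135 and 158 CPM in dLG and 338, 296 and 350 CPM in MGv (log2 fold change -0.79 ± 0.19, adjusted p = 0.0138). The difference in calbindin was the larger, and calretinin was abundant in both nuclei. Necab2 (5.72 to 21.7 CPM in dLG and 54.3 to 106 CPM in MGv, -2.73 ± 0.39) and Hpcal1 (6.27 to 14.3 CPM in dLG and 26.6 to 43.4 CPM in MGv, -1.91 ± 0.29) were higher in MGv as well. Vsnl1, visinin-like 1, was the member higher in dLG (28.2 to 48.5 CPM in dLG and 16.4 to 24.7 CPM in MGv, 0.88 ± 0.24), but did not pass without MGv replicate 1 (adjusted p = 0.113).

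Secreted signals and their modulators passed in both directions. Of 39 Wnt genes, 7 were higher in dLG and 3 in MGv, and of 52 genes of the FGF, neurotrophin and TGF-beta families 14 and 4 (15 and 8 without the 3 libraries with low Hspa8). In the main fit these were 25.6% and 34.6%, beside 16.1% of all genes. The Wnt inhibitors differed by member. Dkk4 was at 14.4, 2.53, 9.81 and 11.2 CPM in dLG and had no count in MGv, at least 105-fold higher against a floor of 3 counts over the MGv group. Wif1 was at 23.2, 13.3, 25.7 and 38.7 CPM in dLG and 3.83, 2.90 and 3.89 CPM in MGv (log2 fold change 2.83 ± 0.39, adjusted p = 2.7e-04). Dkk3 was at 7.90 to 10.5 CPM in dLG and 1.65 to 3.21 CPM in MGv (1.95 ± 0.28). Dkk2, in contrast, was higher in MGv, at 0.304, 1.89, 0 and 0 CPM in dLG and 9.99, 11.1 and 6.12 CPM in MGv (log2 fold change -3.98 ± 0.91, adjusted p = 0.0102, or -6.52 without dLG replicate 2). The ligand Wnt9b was at 20.3 to 37.1 CPM in dLG and 2.11 to 7.14 CPM in MGv (2.54 ± 0.35). The receptor Fzd1 was at 1.25 to 5.84 CPM in dLG and 12.2 to 33.5 CPM in MGv (-2.83 ± 0.48, or -3.53 without dLG replicate 2 and -2.21 without MGv replicate 1).

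Some ligands of other growth factor families were near 0 in MGv. Fgf15 was at 11.5, 10.8, 14.4 and 13.4 CPM in dLG and 0.451, 0.0878 and 0 CPM in MGv (log2 fold change 5.95 ± 0.65, adjusted p = 4.61e-05, or 7.89 without MGv replicate 1), and 25.7% of its exon length overlaps Gm26793. Ntf3, neurotrophin 3, was at 8.71, 10.6, 7.68 and 4.68 CPM in dLG and 0.150, 0.263 and 0 CPM in MGv (log2 fold change 5.73 ± 0.52, adjusted p = 1.04e-05, or 6.44 without MGv replicate 2). Bmp5 was at 4.68 to 10.7 CPM in dLG and 0.292 to 1.23 CPM in MGv (3.09 ± 0.44), with 46.7% of its exon length shared with Gm26903. Noggin, the BMP antagonist from Nog, was at 5.18, 20.3, 11.8 and 25.8 CPM in dLG and 7.89, 2.37 and 1.36 CPM in MGv (log2 fold change 2.0 ± 0.58, adjusted p = 0.0384, or 3.07 without MGv replicate 1), with overlap between the groups. It did not pass without dLG replicate 4 (adjusted p = 0.101), MGv replicate 2 (0.136) or MGv replicate 3 (0.154). The receptors Bmpr1b (1.58 to 3.09 CPM in dLG and 7.37 to 9.72 CPM in MGv, -2.06 ± 0.31) and Gfra2 (7.44 to 10.8 CPM in dLG and 27.5 to 42.7 CPM in MGv, -1.93 ± 0.21) and the follistatin-like gene Fstl5 (21.9 to 48.5 CPM in dLG and 70.7 to 109 CPM in MGv, -1.56 ± 0.25) were higher in MGv.

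The release machinery of synaptic vesicles had 2 of 53 members higher in dLG and 12 in MGv (26.4%, beside 16.1% of all genes). The median log2 fold change was -0.21. Rims2, a scaffold of the active zone, was higher in dLG, at 316, 298, 300 and 391 CPM in dLG and 148, 146 and 163 CPM in MGv (log2 fold change 1.10 ± 0.14, adjusted p = 1.50e-04). On the MGv side, Doc2b, a calcium sensor of spontaneous release, was at 0.304, 2.66, 0.327 and 0.907 CPM in dLG and 14.5, 15.7 and 13.3 CPM in MGv (log2 fold change -3.74 ± 0.79, adjusted p = 0.00638, or -4.77 without dLG replicate 2). Rab3b, a vesicle GTPase, was at 32.4, 94.1, 27.5 and 21.1 CPM in dLG and 153, 184 and 157 CPM in MGv (log2 fold change -1.91 ± 0.38, adjusted p = 0.00459, or -2.61 without dLG replicate 2).

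Immediate early genes, which neurons switch on when active, and heat shock genes had 2 of 34 members higher in dLG and 5 in MGv (20.6%). Among all genes 16.1% passed. Arc was at 0.852, 3.87, 0.599 and 0.716 CPM in dLG and 12.8, 13.8 and 11.2 CPM in MGv (log2 fold change -3.03 ± 0.56, adjusted p = 0.00256, or -4.12 without dLG replicate 2). Npas4 was at 1.40, 11.5, 0.872 and 1.91 CPM in dLG and 46.6, 21.6 and 15.6 CPM in MGv (log2 fold change -2.81 ± 0.73, adjusted p = 0.0208, or -4.31 without dLG replicate 2), and was not called without MGv replicate 1 (-2.22, adjusted p = 0.104). Fosb (7.43 to 20.6 CPM in dLG and 24.2 to 56.6 CPM in MGv, -1.65 ± 0.38) and Gadd45b (2.19 to 7.30 CPM in dLG and 10.3 to 12.1 CPM in MGv, -1.39 ± 0.32) were higher in MGv too. The immediate early genes Fos and Egr1 did not pass: Fos was at 165 to 296 CPM in dLG and 223 to 326 CPM in MGv (adjusted p = 0.241) and Egr1 was at 17.0 to 42.1 CPM in dLG and 19.7 to 25.8 CPM in MGv (adjusted p = 0.573). Hspb1, a small heat shock protein, was higher in dLG, at 16.2, 5.20, 11.2 and 11.3 CPM in dLG and 0.0751, 0.527 and 0.194 CPM in MGv (log2 fold change 5.36 ± 0.60, adjusted p = 5.15e-05, or 6.34 without MGv replicate 2).

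Genes that are used as markers of other cells passed in both directions, and their levels differed widely within a list. For comparison, 8.61% of all genes tested were higher in dLG and 7.49% in MGv. Of 13 astrocyte markers, 10 were tested and 2 were higher in MGv, with a summed level of 36.7 to 57.4 CPM in dLG and 117 to 161 CPM in MGv. The glutamate transporter Slc1a3 was at 1.10, 17.9, 4.63 and 1.81 CPM in dLG and 81.7, 90.3 and 45.5 CPM in MGv (log2 fold change -3.49 ± 0.70, adjusted p = 0.00444, or -4.84 without dLG replicate 2). Aldoc was at 2.10 to 11.8 CPM in dLG and 16.6 to 19.5 CPM in MGv (log2 fold change -1.58 ± 0.40, adjusted p = 0.0178). Slc1a2, another glutamate transporter, was at 19.9 to 32.8 CPM in dLG and 37.3 to 50.3 CPM in MGv and did not pass (adjusted p = 0.208). Aqp4 and Gja1 were at most 1.58 CPM in every library, Aldh1l1 at most 5.18 CPM, and Gfap at most 0.0751 CPM. Of 9 oligodendrocyte markers, 5 were tested, 1 was higher in dLG and 2 in MGv, with sums of 46.7 to 69.9 CPM in dLG and 78.7 to 91.2 CPM in MGv. Mbp was at 8.34, 20.1, 5.99 and 5.25 CPM in dLG and 71.5, 62.4 and 65.4 CPM in MGv (log2 fold change -2.74 ± 0.36, adjusted p = 1.80e-04, or -3.35 without dLG replicate 2). Mag was at 35.5, 39.2, 34.8 and 33.5 CPM in dLG and 2.86, 3.51 and 4.67 CPM in MGv (log2 fold change 3.29 ± 0.38, adjusted p = 7.61e-05). Genes of myelin thus differed in opposite directions, with Sox10 at 0 in all 7 libraries. In bulk samples, fewer cells of a type and less RNA per cell cannot be told apart.

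Of 14 markers of radial glia and progenitors, 12 were tested, 3 were higher in dLG and 2 in MGv, with sums of 157 to 269 CPM in dLG and 77.2 to 166 CPM in MGv. Without the 3 libraries with low Hspa8, 3 were higher in dLG and 1 in MGv. The members higher in MGv are not listed here, so Hes1, higher in dLG, does not stand for the list. Hes1, a target of Notch signalling, was at 47.6, 47.6, 44.5 and 90.7 CPM in dLG and 0.977, 5.44 and 3.11 CPM in MGv (log2 fold change 4.20 ± 0.42, adjusted p = 2.21e-05, or 4.86 without MGv replicate 2). Fabp7 was at 50.4, 29.3, 122 and 60.6 CPM in dLG and 17.2, 76.9 and 12 CPM in MGv and did not pass (adjusted p = 0.388). Mki67, a gene of dividing cells, was at most 0.902 CPM. Of 9 habenula markers, 8 were tested, 2 were higher in dLG and 3 in MGv, with sums of 299 to 368 CPM in dLG and 392 to 529 CPM in MGv. Among those higher in MGv were Gng8 (0.731 to 3.76 CPM in dLG and 11.7 to 34.3 CPM in MGv, log2 fold change -3.46 ± 0.54, adjusted p = 7.78e-04) and Nwd2 (12.9 to 15.3 CPM in dLG and 27.3 to 64.6 CPM in MGv, log2 fold change -1.56 ± 0.30, adjusted p = 0.00349). The 2 habenula markers higher in dLG are not listed here, so Gng8 and Nwd2 do not stand for the list. The habenular factor Pou4f1 was at most 0.816 CPM. The 13 pretectal and midbrain markers summed to at most 3.01 CPM in any library, and 0 of them had enough counts to be tested. Of 10 tested microglial markers, 1 was higher in MGv, with sums of 55.5 to 68.6 CPM in dLG and 50.0 to 61.6 CPM in MGv. Of 7 endothelial and mural markers, 1 was higher in dLG and 1 in MGv. Of 3 cortical markers 1 was higher in each nucleus, of 7 GABAergic markers 1 was higher in MGv, the 1 meningeal marker did not pass, and of 3 blood markers 2 were higher in dLG by edgeR and 0 by DESeq2. These counts stand beside 8.61% of all genes tested that were higher in dLG and 7.49% that were higher in MGv. The part of other cells in the differences between the nuclei was not tested.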

How the data were processed

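RNA-seq libraries were prepared by the authors from red-sorted thalamic neurons (SMARTer Ultra Low kit, single-end reads on a HiSeq2500). The submitters' processing notes name FastQC 0.11.7, Trim Galore 0.6.1, cutadapt 2.3, STAR 2.7.0d, SAMtools 1.9 and featureCounts of Subread 1.6.4, and the build mm10. The authors deposited raw read counts per Ensembl gene for each library. The settings for strand and for reads that map to several places are not given in the sources used here, so reads of overlapping, antisense or near-identical genes cannot be told apart.

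The 54752 identifiers were given symbols from GENCODE M21 (54723 matched), and groups and replicate numbers came from the sample titles. Counts were filtered with filterByExpr, scaled by TMM and tested with edgeR 4.0.16 (glmQLFit and glmQLFTest, R 4.3.3) in a fit of 3 group means over all 11 libraries, with the contrast dLG minus MGv, two-sided, and Benjamini-Hochberg adjustment over 15907 genes at 0.1. Standard errors are the log2 fold change divided by the root of F. The common biological coefficient of variation was 28.2%. CPM are TMM-scaled. Floors of 3 counts and the 95% exact intervals cover counting error only, since PCR reads are not independent molecules.

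Gene lists were described by counts and medians with no test. The members and lists were chosen with earlier results of these data known. Genes named were 6 markers, per direction the 12 largest non-overlapping changes over 10 CPM, the 4 largest per list over 5 CPM, the 6 smallest p over 100 CPM, further list members whose role helps, and partners in promoter motifs. Library measures and marker sums were described with no test. The fit was tested on simulated data with known changes in a small share of the genes, drawn without the shifts of single libraries seen above. The shares found there may therefore not hold for the real comparison. Of genes raised 2-fold 41% were called in the right direction, and of those raised 4-fold 84%. Of the genes called 9.42% had not been changed, and with no gene changed 0 were called. A gene that did not pass may therefore still differ. Alternatives used DESeq2 1.42.0, limma 3.58.1 (voom), other scalings, filters, thresholds and depths, a replicate block, and libraries left out. Libraries of a nucleus differed beyond sampling noise (chi-square per degree of freedom of 18.5 to 57.5 over 9 pairs), and all were counted as separate. Promoters came from RefSeq tables. Some members of these lists are not reported here.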

Additional observations from a re-analysis of the deposited data

Results flagged for a closer look

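Among the values of 197 named genes and 7 library measures, 24 of 204 sets of 4 dLG values (11.8%) had a highest or lowest library whose gap to its neighbour, as a share of the whole range, passed Dixon's 95% critical value. Chance passes about 1 in 20 independent sets. These sets share the same 4 libraries, and most are of genes chosen as differing, so that rate is no yardstick for their number. dLG replicate 2 was the high library in 15 of them and the low library in 3. It was high for Crabp2 (0.971), Pcdh17 (0.951), Adcyap1r1 (0.942), Tcf7l2 (0.923), Arc (0.923), Kcnd2 (0.922), Tacr3 (0.915), Npas4 (0.902), Galr1 (0.889), Foxp2 (0.874), Bcl11a (0.870), Fstl5 (0.858), Rab3b (0.845), Dkk2 (0.839) and Hpcal1 (0.835), all higher in MGv. It was low for Slc18a2 (0.913), Sox5 (0.883) and Gria1 (0.830), all higher in dLG.

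Other libraries stood apart for single genes. dLG replicate 4 was high for Hes1 (0.931), Efna5 (0.888) and Sp9 (0.834), and dLG replicate 1 was high for Pnoc (0.930). dLG replicate 3 was high for Hbb-bs (1.000) and low for Nr2f1 (0.867). The 3 MGv libraries were too few for this measure.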

How the results depend on the processing

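Of 24 alternatives, 159 of 197 named genes were tested in all and the other 38 in 21 or 23. Of 179 named genes that passed, 149 kept their call in each alternative in which they were tested, 30 lost it in at least 1 and 0 reversed direction. Of 18 named genes that did not pass, 9 passed in at least 1 alternative, and Cacna1g changed sign without MGv replicate 2, its log2 fold change running from -0.24 to 0.01 over the fits with 1 library left out. Against 2562 genes, 1552 passed when an absolute log2 fold change over 1 was also required, 632 of them higher in MGv, by construction of that threshold. Leaving out 1 library in turn gave 1886 to 3300 genes, 1035 to 1763 higher in dLG and 843 to 1537 higher in MGv, and 1392 genes passed in every such fit. All these upper ends came without VPM replicate 3, and leaving out a dLG or MGv library gave at most 2656. DESeq2 called 3062 and voom 3068. With the dLG and MGv libraries alone, 14825 genes were tested and 2491 passed. Of 288 counts over gene lists, 20 moved by over 1.5 times.

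Same-numbered dLG and MGv libraries did not deviate together (correlations of -0.20 to 0.07 over 3 pairs, and -0.18 to 0.26 over the 9 others). With only 3 such pairs, these values cannot decide whether libraries of equal number were taken from one pool of animals. A shared origin was thus not tested, and the main fit treated the libraries as unpaired. With the replicate number as a block 2169 genes passed, 1148 higher in dLG and 1021 higher in MGv. No dLG library correlated best with the MGv library of its own number, and of the MGv libraries only replicate 3 did so with dLG. The highest correlation, 0.26, was between dLG replicate 2 and MGv replicate 1, both low in Hspa8. Of 6 sex-linked transcripts 2 passed as higher in dLG with the block, against 0 without it. Genes with a few counts in 1 nucleus have fold changes that depth limits, as their values there lie near the level of 3 counts.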
